A study of Mus musculus with 10 samples.

Results

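Positions bound by the estrogen receptor alpha (ERα) were examined around 9 genes of the feeding and growth circuits of the arcuate nucleus: Pomc, Cartpt, Agrp, Npy, Mc3r, Mc4r, Npy1r, Ghrh and Sst. A gene's window was its body plus 100 kb on either side of each of its RefSeq start sites in the mouse genome mm10, and every ERα peak touching that window was taken. The 9 genes, of 38660 RefSeq genes, held 57 of 25982 peaks, which formed 18 of the 8072 regions left after overlapping peaks (1 bp or more) of the 8 libraries were merged. ERα was mapped by ChIP-seq, in which an antibody pulls down the receptor with its DNA and peaks mark where the sequenced reads pile up over the local background. The data comprised 4 libraries from the arcuate nucleus and 4 from the AVPV, the rostral periventricular region of the hypothalamus, all from female C57BL/6 mice. Mice of both groups were ovariectomised, carried an estradiol implant (0.1 mg/mL) and were collected 28 h after estradiol benzoate (0.05 mg/kg), so estradiol treatment was shared by the nuclei and no untreated group enters these comparisons. The chromatin was pooled and the sources used here do not say whether each library had a pool of its own, so every SD and test is over libraries and not over animals.

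The peptides made from Pomc (α-MSH among them) and Cartpt are known to reduce feeding, while Agrp and Npy, made by a neighbouring population of arcuate neurons, promote it. The melanocortin receptors Mc3r and Mc4r are activated by α-MSH and antagonised by AgRP, and Npy1r is a receptor for neuropeptide Y. Ghrh drives the release of growth hormone from the pituitary and somatostatin, encoded by Sst, inhibits it. ERα is a hormone-dependent transcription factor that binds DNA directly at a palindromic estrogen response element or through other factors such as AP-1.

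ERα regions lay in the windows of 8 of the 9 genes, and Npy was the gene without any. A region was found in the window of 53.7% of all RefSeq genes and of 57.9% of the 21000 genes with a curated mRNA (NM_ transcript). A region with peaks in at least 2 libraries of a nucleus was held by 7 of the 9, against 42.3% of genes with an NM_ transcript. Such regions had at least 2 libraries of the arcuate but not of the AVPV for Agrp and Mc4r (2 genes, background 8.87%), of the AVPV but not of the arcuate for Sst (1 gene, 4.18%) and of both nuclei for Pomc, Cartpt, Mc3r and Ghrh (4 genes, 29.3%). A region in all 4 arcuate and no AVPV libraries lay in the window of 2 genes, Pomc and Agrp, against 1.74%, and a region within 1 kb of a start was held by 2, Npy1r and Ghrh, against 15.4%.

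Of the 18 regions, 9 had peaks in arcuate libraries only, 3 in AVPV libraries only and 6 in both nuclei. Over all regions these shares were 41.7%, 18.5% and 39.8%, and the arcuate lists were the longer ones on average. A single library carried 6 of the 18, against 41.5% of all regions. All 8 libraries carried 2 of them, the regions near Mc3r and Ghrh, against 13.5% of all regions. Peaks in every arcuate library and no AVPV library were found at 2 regions, near Pomc and Agrp, against 2.13% of all regions, and the opposite pattern was found at 0 regions, against 0.818%. With at least 2 arcuate libraries and no AVPV library there were 5 (13.5%), and with at least 2 AVPV libraries and no arcuate library there was 1 (5.19%). The numbers of members are small and their windows overlap those of many other genes: for 12 of the 18 regions the nearest start site belonged to a gene outside the set.

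**Figure D1:**
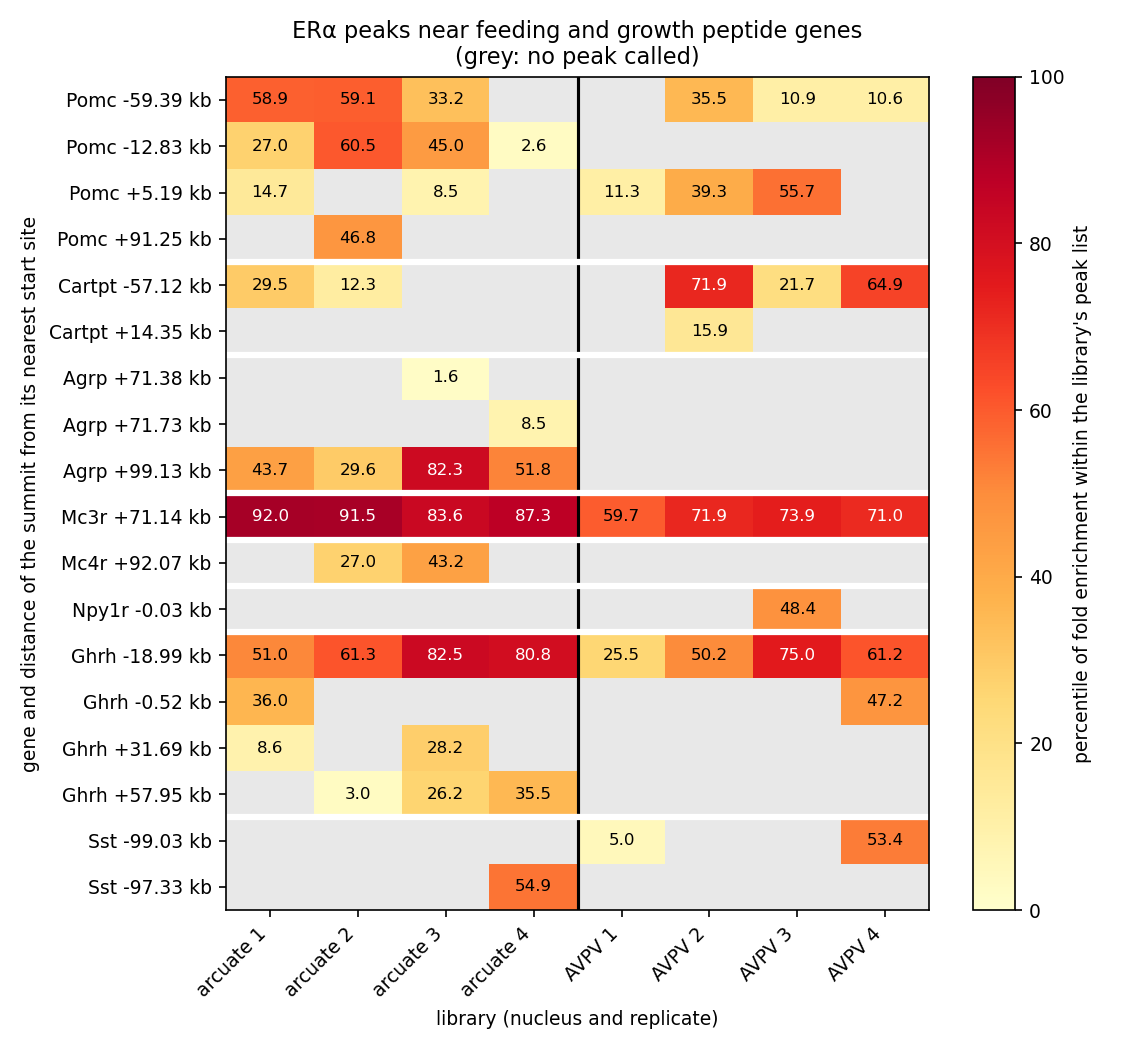
Percentile of fold enrichment within each library's own peak list (colour and number) for the 18 regions, with libraries in columns and regions in rows named by gene and distance of the summit from the nearest start site in kb (negative is upstream). Grey cells had no called peak; the Mc3r and Ghrh (18.99 kb upstream) rows are filled in all 8 libraries, and the Pomc (12.83 kb upstream) and Agrp (99.13 kb downstream) rows in the 4 arcuate libraries alone.

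Because each list has its own background, the strength of a peak is given as its percentile of fold enrichment within its list, where 100 is the strongest peak. The lists held 2367 to 4079 peaks. Peaks in the 9 windows numbered 9, 9, 10 and 7 in arcuate libraries 1 to 4 and 4, 6, 6 and 6 in AVPV libraries 1 to 4. This was 0.241% ± 0.0464 of the list in the arcuate and 0.195% ± 0.0295 in the AVPV (SD, n = 4 each), and the libraries overlapped (from 0.169% to 0.308%). No peak above the median of its list was found at 9 of the 18 regions, against 54.9% of all regions, and 3 (Mc3r, and 1 each near Agrp and Ghrh) had a peak in the top 25% of a list, against 21.4%. The number of reads behind each list was not analysed here, so the absence of a call does not show that the receptor was absent. The tissue was bulk, so fewer cells with a bound site and weaker binding in each cell cannot be told apart, and the peak lists hold no expression with which the dissected nucleus could be checked.

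Pomc, the precursor gene of α-MSH and ACTH, had the most ERα regions together with Ghrh, 4 each, and 7.93% of genes with an NM_ transcript had at least 4. Its window (gene at chr12:3954945-3960643, plus strand) held 3, 3, 3 and 1 peaks in arcuate libraries 1 to 4 and 1, 2, 2 and 1 in the AVPV libraries (exact two-sided permutation test, p = 0.229), and the nuclei overlapped through arcuate library 4. The region nearest upstream was at chr12:3941942-3942323, in intergenic sequence 12.8 kb upstream of the start, and Pomc is the gene with the nearest start. Arcuate libraries 1 to 4 had peaks there at percentiles 27.0, 60.5, 45.02 and 2.55 (fold enrichment 5.00, 6.72, 5.86 and 3.32), and no AVPV library had a peak. The nuclei thus did not overlap in their calls (Fisher's exact test over libraries, p = 0.0286, the smallest possible with 4 against 4), but after adjustment over all 8072 regions p was 0.969 (Benjamini-Hochberg), so the difference did not hold at that level. The peak of arcuate library 4 was among the weakest of its list. With only peaks of fold enrichment above 5, or of −log10 q of at least 5, the region was no longer called in all 4 arcuate libraries.

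The 201 bases around the strongest summit of that region are shown because it is the arcuate-only region closest to the start of any of the 9 genes. They are written 5′ to 3′ on the plus strand of GRCm38.p6 (mm10), as are all sequences given here, with capitals marking a response element where there is a match.

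Pomc, 12.8 kb upstream, chr12:3942013-3942213: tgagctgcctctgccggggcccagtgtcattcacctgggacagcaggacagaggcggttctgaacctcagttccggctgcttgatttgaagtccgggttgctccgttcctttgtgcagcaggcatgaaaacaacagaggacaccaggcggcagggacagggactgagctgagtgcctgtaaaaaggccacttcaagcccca

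A response element was searched as AGGTCANNNTGACCT, a palindrome that reads the same on both strands, allowing up to 2 mismatches among the 12 fixed bases, within 100 bp of the strongest summit. Distances between summit and element are to the centre of the element. The Pomc region 12.8 kb upstream had none, and its best stretch had 5 mismatches.

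The region 5.19 kb downstream of the Pomc start (chr12:3959983-3960317) lay in the coding part of the last exon, exon 3 of 3 in NM_008895.4 (chr12:3959893-3960643), which encodes ACTH and α-MSH. Peaks were called in arcuate libraries 1 and 3 at percentiles 14.7 and 8.49 and in AVPV libraries 1, 2 and 3 at 11.3, 39.3 and 55.7. The region was thus found in both nuclei, and the AVPV values included both the highest of all and a value within the arcuate range. It was GC-rich, at 67.2%, beside a median of 52.2% over all regions. Coding exons held 2 of the 18 regions, both in the Pomc window, against 3.63% of all regions. Its sequence is shown because it is the only one inside the coding sequence of a member gene.

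Pomc, 5.19 kb downstream, chr12:3960037-3960237: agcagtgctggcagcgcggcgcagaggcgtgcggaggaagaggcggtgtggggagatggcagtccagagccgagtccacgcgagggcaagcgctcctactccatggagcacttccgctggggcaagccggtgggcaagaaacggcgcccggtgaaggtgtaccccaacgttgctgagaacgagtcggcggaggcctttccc

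The other Pomc regions lay farther away. At chr12:3895377-3895761, 59.4 kb upstream and in an exon of Dnmt3a, a DNA methyltransferase gene whose nearest start was 3.81 kb away, peaks were called in arcuate libraries 1 to 3 at percentiles 58.9, 59.1 and 33.2 and in AVPV libraries 2 to 4 at 35.5, 10.9 and 10.6. Arcuate and AVPV libraries overlapped, since AVPV library 2 exceeded arcuate library 3. The element there was GGGTCAAGATGACTT (chr12:3895509-3895523), 40 bp from the summit, with the substitutions A1G and C14T against the palindrome, counted from 1 at its first base. At chr12:4046133-4046342, 91.3 kb downstream and 7.28 kb from the start of Efr3b, arcuate library 2 alone had a peak, at percentile 46.8. That single-library site carried an element with 1 mismatch (T15A), 50 bp from the summit, and an AP-1 motif (TGANTCA). It is shown to set an element with 1 mismatch beside the region 12.8 kb upstream, which had none.

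Pomc, 91.3 kb downstream, chr12:4046096-4046296: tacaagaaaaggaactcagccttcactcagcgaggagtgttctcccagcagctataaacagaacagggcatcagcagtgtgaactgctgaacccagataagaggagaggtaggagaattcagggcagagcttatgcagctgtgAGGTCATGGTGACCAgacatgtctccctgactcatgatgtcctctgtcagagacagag

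**Figure D2:**
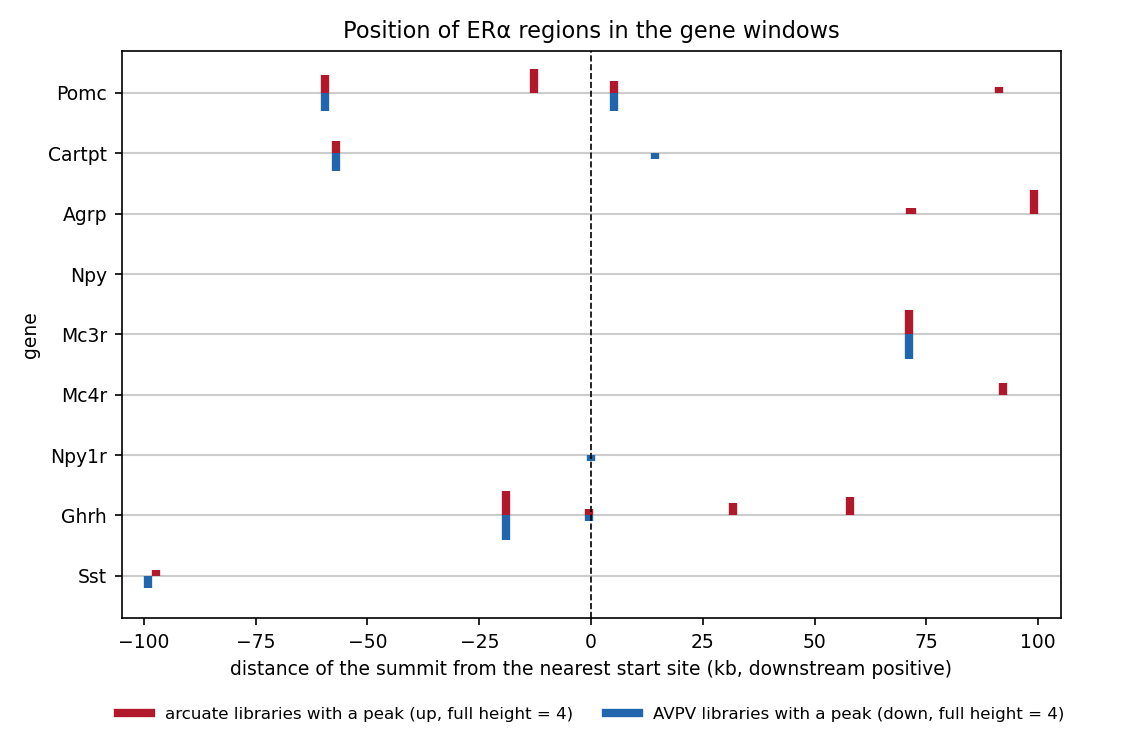
Position of the 18 regions relative to the nearest start site of their gene (horizontal axis, kb, downstream positive), with 1 line for each gene. Bar height gives the number of arcuate libraries (up, red) and AVPV libraries (down, blue) with a peak, from 0 to 4; the line of Npy is empty, 6 regions lie within 20 kb of a start, and the Agrp regions at 71.38 and 71.73 kb are drawn side by side and touch.

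Cartpt, which encodes the CART peptide that is made together with Pomc products in the arcuate, had 2 regions. At chr13:99967142-99967535, 57.1 kb upstream and in an intron of Mccc2, peaks were called in arcuate libraries 1 and 2 at percentiles 29.5 and 12.3 and in AVPV libraries 2, 3 and 4 at 71.9, 21.7 and 64.9. The highest values were in the AVPV, but AVPV library 3 fell between the arcuate values. The element had 2 mismatches (G2T and C13T) and lay 33 bp from the summit. At chr13:99886214-99886393, 14.4 kb downstream, AVPV library 2 alone had a peak, at percentile 15.9, and the element there had 1 mismatch (T10A). Peaks in the Cartpt window numbered 1, 1, 0 and 0 in the arcuate and 0, 2, 1 and 1 in the AVPV (exact two-sided permutation test, p = 0.657). Both sequences are shown because every Cartpt region carried an element.

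Cartpt, 57.1 kb upstream, chr13:99967202-99967402: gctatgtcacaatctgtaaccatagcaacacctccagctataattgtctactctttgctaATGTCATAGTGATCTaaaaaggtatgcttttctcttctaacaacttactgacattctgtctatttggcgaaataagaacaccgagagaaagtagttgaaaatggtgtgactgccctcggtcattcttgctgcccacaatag
Cartpt, 14.4 kb downstream, chr13:99886232-99886432: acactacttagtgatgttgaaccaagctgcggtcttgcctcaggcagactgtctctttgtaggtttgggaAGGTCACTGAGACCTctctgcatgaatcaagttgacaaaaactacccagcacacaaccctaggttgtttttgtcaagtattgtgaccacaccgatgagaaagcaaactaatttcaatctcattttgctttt

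Agrp, the endogenous antagonist of melanocortin receptors, was the gene whose window separated the nuclei. Its peaks numbered 1, 1, 2 and 2 in arcuate libraries 1 to 4, and every AVPV library had 0. The arcuate libraries were all higher (exact two-sided permutation test, p = 0.0286). Adjusted over all RefSeq genes the p was 1, and every arcuate library exceeded every AVPV library in 1.59% of all genes. The opposite separation was found for 0 of the 9 genes and in 0.287% of all genes. The separation rested on a region at chr8:105468971-105469471, 99.1 kb downstream of an Agrp start and therefore just inside the window, in an intron of Tppp3 and 2.25 kb from its start. In a predicted transcript the summit falls in an untranslated exon, and the sequence is therefore not shown. Arcuate libraries 1 to 4 had percentiles of 43.7, 29.6, 82.3 and 51.8 (fold enrichment 5.84, 4.93, 10.1 and 5.99) and no AVPV library had a peak (Fisher's exact test, p = 0.0286, adjusted over all regions 0.969). Arcuate library 3 was the strongest there. With windows of 50 kb, the Agrp window held no peak. With peaks of fold enrichment above 5 the region was called in fewer than 4 arcuate libraries, since library 2 fell below that limit, and with −log10 q of at least 5 it kept its 4 arcuate calls. No element was found. The remaining Agrp regions, 71.4 and 71.7 kb downstream at the Zdhhc1 gene, had a peak in a single library each, arcuate library 3 (percentile 1.57) and arcuate library 4 (8.49).

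Npy, expressed by the same arcuate neurons as Agrp, had no ERα peak in its window in any of the 8 libraries, although a region was found for 57.9% of genes with an NM_ transcript. The nearest peak was 514.0, 616.4, 514.1 and 1647 kb from the start (chr6:49822710) in arcuate libraries 1 to 4. In AVPV libraries 1 to 4 it was 1268, 101.7, 503.4 and 101.8 kb away. The median over libraries was 514 kb, and 74.4% of genes with an NM_ transcript had a smaller median, their typical value being 211 kb. The nearest region outside the window, at chr6:49924363-49924620, was 101.8 kb downstream and was called in 2 AVPV libraries.

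Among the receptors, Mc3r had the region with the highest median percentile of all 18, at 78.7. Its single region at chr2:172319053-172319888 was intergenic, 71.1 kb downstream of the Mc3r start, with the noncoding gene Gm14273 starting 4.71 kb away and the nearest gene with an NM_ transcript, Fam210b, 25.9 kb away. The percentiles were 92.0, 91.5, 83.6 and 87.3 in arcuate libraries 1 to 4 and 59.7, 71.9, 73.9 and 71.0 in AVPV libraries 1 to 4. Every arcuate library stood above every AVPV library. The means were 88.6 ± 3.95 and 69.1 ± 6.40 (SD, n = 4 each), a difference of 19.5 percentile points (exact two-sided permutation test, p = 0.0286, the smallest possible). Among the 1089 regions with a peak in all 8 libraries, 14.2% had every arcuate library higher and 6.8% every AVPV library higher, and 84.5% had a smaller difference. The adjusted p for Mc3r was 0.136, so the difference did not pass after adjustment. In fold enrichment the values were 14.4, 12.9, 10.4 and 10.8 in the arcuate and 7.06, 8.38, 8.45 and 8.51 in the AVPV. A percentile also depends on how many weak peaks a list holds, and the lists differed in length. Ranked among the 1089 regions alone, which are the same in every library, the difference was 30.3 points. With each list cut to its 2367 strongest peaks it was 19.001 points. Every arcuate library was higher in each case (exact two-sided permutation test, p = 0.0286 for both, not adjusted over all regions). Both rankings were chosen after seeing the data, and the share of all regions that separate in them is not given here.

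The strongest Mc3r summit lay within an element with 1 mismatch (C14T), 7 bp from its centre, and its sequence is shown because the strongest region of the set carried it.

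Mc3r, 71.1 kb downstream, chr2:172319529-172319729: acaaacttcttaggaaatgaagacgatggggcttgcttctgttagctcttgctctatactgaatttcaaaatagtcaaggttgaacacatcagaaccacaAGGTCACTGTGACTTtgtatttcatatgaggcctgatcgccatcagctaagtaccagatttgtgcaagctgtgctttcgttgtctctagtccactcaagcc

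Mc4r, the melanocortin receptor whose loss causes obesity, had 1 region, at chr18:66768303-66768555, in intergenic sequence 92.1 kb downstream of its start, with Mc4r itself as the nearest gene. Arcuate libraries 2 and 3 had peaks there at percentiles 27.0 and 43.2, and the other arcuate libraries and all AVPV libraries had none (Fisher's exact test, p = 0.429). Npy1r had 1 region, at chr8:66697019-66697246, where only AVPV library 3 had a peak, at percentile 48.4. The region covered a start site of non-curated transcripts, with its summit 0.027 kb upstream of it and 0.3 kb from the nearest start of a curated mRNA. It contained an AP-1 motif and no element, and the start of Npy5r, another receptor of neuropeptide Y, was 9.03 kb away. Promoters, taken as the 1 kb before a start and the 100 bp after it, held 3 of the 18 regions and 26.1% of all regions, and those in the promoter of a member gene itself were the single-library Npy1r region and a Ghrh region.

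Ghrh, the growth hormone-releasing hormone gene (chr2:157329496-157348725, minus strand), had 4 regions. Its window held 3, 2, 3 and 2 peaks in arcuate libraries 1 to 4 and 1, 1, 1 and 2 in the AVPV libraries, which overlapped at 2 peaks (exact two-sided permutation test, p = 0.0857). The strongest was at chr2:157367279-157368049, 18.99 kb upstream of the nearest Ghrh start and 0.119 kb from the start of Manbal, in whose intron it lay. It had percentiles of 51.0, 61.3, 82.5 and 80.8 in the arcuate and 25.5, 50.2, 75.02 and 61.2 in the AVPV. The nuclei overlapped, with means of 68.9 ± 15.3 and 53.0 ± 20.95 (SD, n = 4 each). The difference of 15.9 points did not pass its test (exact two-sided permutation test, p = 0.229, adjusted 0.441). It was 10.98 points when ranked among the 1089 regions alone and 3.43 points with each list cut to its 2367 strongest peaks (exact permutation, two-sided, p = 0.371 and 0.857 in that order). No element was found. The sequence between the untranslated bases of Manbal and the end of the 100-bp flank is shown as the other region found in all 8 libraries, without an element.

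Ghrh, 18.99 kb upstream, chr2:157367641-157367813: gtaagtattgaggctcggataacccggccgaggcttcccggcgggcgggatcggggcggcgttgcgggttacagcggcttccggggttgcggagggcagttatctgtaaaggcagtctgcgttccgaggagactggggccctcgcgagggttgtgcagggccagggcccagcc

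**Figure D3:**
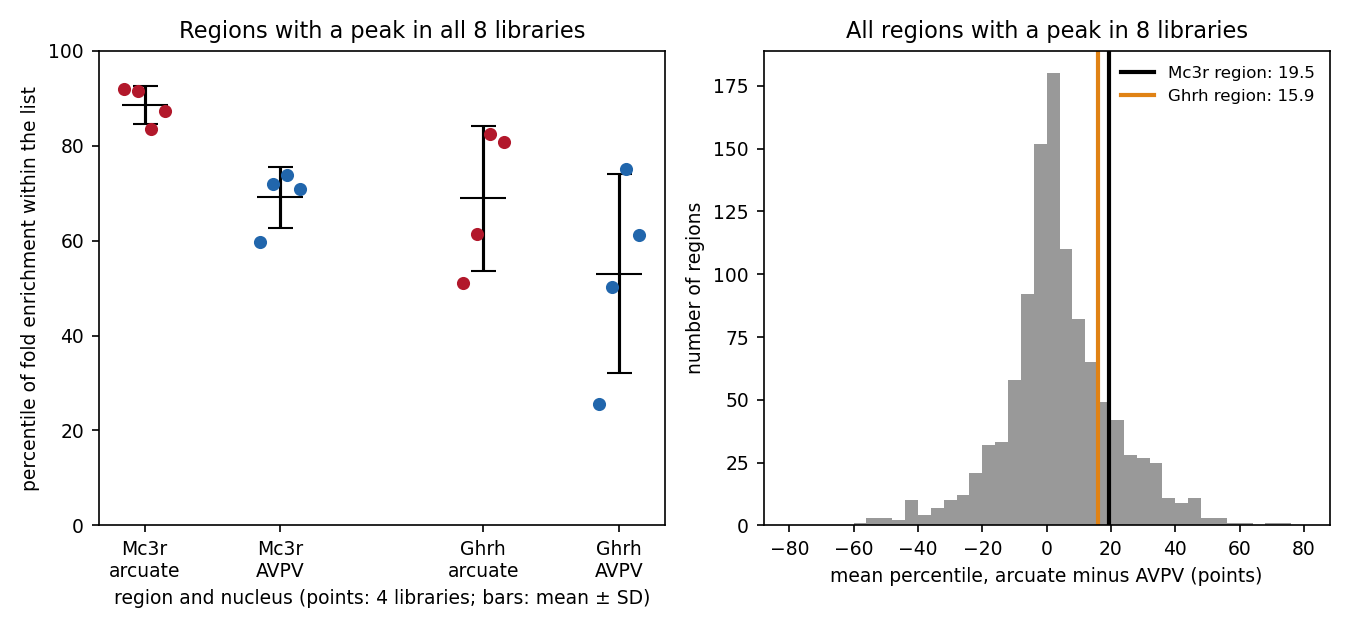
Left, percentile of fold enrichment at the Mc3r and Ghrh regions, with points for the 4 libraries of each nucleus and bars for the mean ± SD; the Mc3r nuclei do not overlap and the Ghrh nuclei do. Right, mean percentile in the arcuate minus the AVPV (points, horizontal) and number of regions (vertical) for the 1089 regions with a peak in all 8 libraries, with lines at 19.5 for Mc3r and 15.9 for Ghrh, both on the right flank of the distribution.

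Nearest to a Ghrh start was chr2:157337843-157338035, 0.524 kb upstream of the start at 157337426 and inside the gene body, with peaks in arcuate library 1 at percentile 36.0 and AVPV library 4 at 47.2. The remaining Ghrh regions were in arcuate libraries only. At chr2:157279109-157279566, 58.0 kb downstream and at the shared promoter of Mroh8 and Rpn2, arcuate libraries 2, 3 and 4 had percentiles of 2.97, 26.2 and 35.5 (Fisher's exact test, p = 0.143). At chr2:157305615-157306070, 31.7 kb downstream in an intron of Rpn2, arcuate libraries 1 and 3 had 8.61 and 28.2. All these peaks lay below the median of their lists.

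Sst, which encodes somatostatin, had no region within 50 kb. Its regions lay beside Bcl6, a transcriptional repressor gene, near the edge of the window. At chr16:23990277-23990616, 99.03 kb upstream, AVPV libraries 1 and 4 had peaks at percentiles 5.01 and 53.4 and no arcuate library had one, and the element there, with 2 mismatches (A12T and C13T), held the summit, 6 bp from its centre. At chr16:23988577-23988771, 97.3 kb upstream, arcuate library 4 alone had a peak, at 54.9. Peaks in the Sst window were 0, 0, 0 and 1 in the arcuate and 1, 0, 0 and 1 in the AVPV (exact two-sided permutation test, p = 1). The AVPV region's sequence is shown as the only one of the set with at least 2 AVPV libraries and no arcuate library.

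Sst, 99.03 kb upstream, chr16:23990270-23990470: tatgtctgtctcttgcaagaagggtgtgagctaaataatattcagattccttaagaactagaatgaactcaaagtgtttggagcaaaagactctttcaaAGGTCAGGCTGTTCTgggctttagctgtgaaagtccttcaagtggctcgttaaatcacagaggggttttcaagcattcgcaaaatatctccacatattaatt

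**Figure D4:**
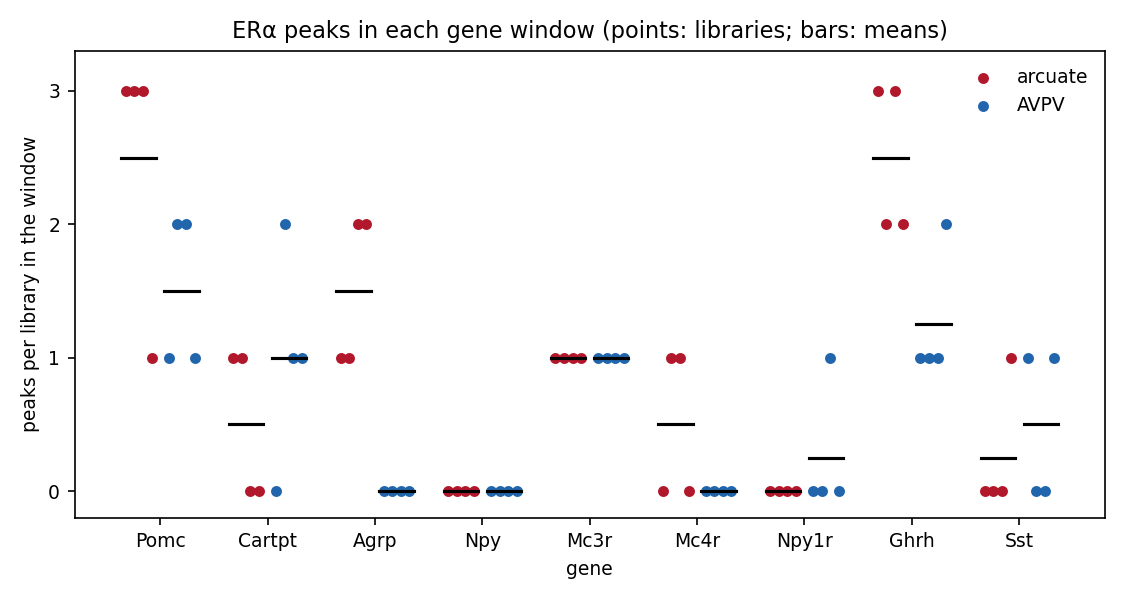
Number of ERα peaks in each gene's window (vertical axis), with points for the 4 libraries of each nucleus and bars for their means. Agrp is the gene whose arcuate libraries (1 or 2 peaks) all lie above the AVPV libraries (0 peaks), Npy is at 0 throughout and Mc3r at 1 throughout.

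Across the 18 regions, 6 carried a response element (33.3%), against 28.5% of all regions and 1.45% of the same windows moved by 5 kb. These were at Pomc (2), Cartpt (2), Mc3r and Sst, and none of the 5 regions with at least 2 arcuate and no AVPV libraries had a match. The share with an element among all regions with those calls is not given here, so no trait is read from these 5. AP-1 motifs were present at 3 (6.23% of all regions). The distances from a member start were within 1 kb for 2 regions, within 20 kb for 6 and beyond 50 kb for 11. Introns held 5 regions (32.7% of all regions) and intergenic sequence held 6 (32.2%). These shares are descriptions and were not tested.

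The next regions outside the windows show how the 100-kb limit acted. The regions at 99.1 kb (Agrp), 99.03 kb and 97.3 kb (Sst) were just inside, and the first region beyond the Npy window was 101.8 kb away. The next after these were 120.7 kb from Mc3r, 127.8 kb from Pomc and 132.8 kb from Ghrh.

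A list of 24 other genes of these pathways was counted in the same windows, and 15 had a region (57.9% of genes with an NM_ transcript), 11 of them with peaks in at least 2 libraries of a nucleus (42.3%). Of those 11, 5 reached 2 libraries in the arcuate alone (8.87%), 3 in the AVPV alone (4.18%) and 3 in both nuclei (29.3%). Of 4 genes for peptide processing enzymes, Pam, which amidates peptides, had such a region, 97.2 kb upstream and in 3 AVPV libraries only (percentiles 4.04 to 33.0), while Pcsk1 and Cpe had no region. Of 5 melanocortin accessory and downstream genes, Mrap2, an accessory protein of melanocortin receptors, had a region 18.5 kb upstream in AVPV libraries 1, 2 and 4 (percentiles 35.0, 64.8 and 27.2) and no arcuate library. At both Pam and Mrap2, calls in 3 AVPV and no arcuate libraries had p = 0.143 (Fisher's exact test). At least 2 AVPV and no arcuate libraries had a peak at 5.19% of all regions. Ntrk2, the receptor of BDNF, had a region in all 8 libraries in an intron 27.4 kb from its start, at percentiles of 81.3, 69.6, 84.4 and 64.3 in the arcuate and 80.5, 71.9, 80.9 and 74.1 in the AVPV. Its values overlapped between the nuclei. Ntrk2 also had a promoter region in 3 arcuate and 4 AVPV libraries, an intronic region 70.3 kb downstream in 2 arcuate and 0 AVPV libraries, another 283.9 kb downstream in 1 arcuate and 4 AVPV libraries, and 1 region in a single library. Sim1 and Bdnf had no region.

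Of 9 receptor genes, 8 had a region (57.9% of genes with an NM_ transcript) and 6 had peaks in at least 2 libraries of a nucleus (42.3%). Among the 8, Npy5r had only the Npy1r region of AVPV library 3, which is thus counted in both lists. Npy4r, a receptor of the neuropeptide Y family, had regions 18.9 kb upstream (arcuate libraries 1 to 3 at percentiles 90.0, 94.1 and 76.5, and AVPV library 4 at 29.5) and 21.4 kb downstream (all 4 arcuate libraries, at 85.9, 83.8, 45.02 and 65.6, and AVPV libraries 2 to 4, at 24.1, 44.9 and 33.3). Libraries without a peak have no percentile, and upstream AVPV library 4 alone gave an AVPV value. Downstream, the lowest arcuate value (45.02) and the highest AVPV value (44.9) were close. These values were not tested, and the share of all regions with such an order is not given here. Among somatostatin receptors, Sstr3 had a region in 4 arcuate and 3 AVPV libraries. It lay 1.21 kb downstream of a start of non-curated transcripts and 3.81 kb from the nearest start of a curated mRNA. Sstr2 had a region 30.0 kb upstream in all 4 arcuate libraries (percentiles 13.7, 61.3, 69.0 and 54.9) and no AVPV library. That pattern was found at 2.13% of all regions, and its p adjusted over all regions was 0.969 (Fisher's exact test, Benjamini-Hochberg). Sstr5 had a region 64.2 kb downstream, in a coding exon of another gene, in arcuate libraries 3 and 4 (percentiles 16.5 and 10.9). Ghrhr, the receptor of growth hormone-releasing hormone, had a region 99.3 kb upstream in arcuate libraries 1 to 3. Npy2r was called in 1 arcuate and 2 AVPV libraries. Of 6 transcription factor genes of the peptide neurons, Nhlh2 had a region 31.2 kb downstream in arcuate libraries 1, 2 and 4 (percentiles 79.0, 84.9 and 75.4) and none in the AVPV. Bsx had 2 regions in 2 arcuate libraries each. That 73.8 kb upstream, at the promoter of another gene, was also called in 1 AVPV library, and the other was 98.8 kb downstream. Isl1, Tbx3, Otp and Gsx1 had none. Calls in 3 arcuate and no AVPV libraries (Ghrhr and Nhlh2) had p = 0.143 (Fisher's exact test). At least 2 arcuate and no AVPV libraries, also found at Sstr5 and at a Bsx and an Ntrk2 region, had a peak at 13.5% of all regions.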

How the data were processed

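ERα ChIP-seq peak lists of 4 arcuate and 4 AVPV libraries were analysed. The 2 input samples had no file here. According to the submitters' processing notes, Bowtie2 2.5.0, MACS2 2.2.7.1 and deepTools 3.5 were used, with the build mm10. The authors called peaks in each library by itself, and no peak in the deposited lists exceeds a false discovery rate of 5%. The values used were the deposited fold enrichment, which is a ratio to the local background, and the deposited −log10 q-value. The score and −log10 p-value columns were not used, and 0 further per-sample columns were present.

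Peaks sharing at least 1 bp over the 8 libraries were merged into regions. Percentiles of fold enrichment were taken within each list. Genes and classes came from RefSeq for GRCm38.p6, the patch release of mm10, whose chromosomes hold every peak. Libraries were compared by Fisher's exact test over libraries for each region and by exact two-sided permutation over 70 divisions for the number of peaks in a window and for percentiles. Each was run on all regions or all genes and adjusted by the Benjamini-Hochberg method over all of them. With 4 against 4 libraries, the smallest p is 0.0286. The depth of the libraries was not analysed, and no counts were available from which intervals could be made. The functions were tested on simulated data. Python 3.11.15, numpy 2.4.6, scipy 1.17.1 and matplotlib 3.10.9 were used.

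The genes named are the 9 members with every region in their windows, the listed pathway genes with a region in at least 2 libraries of a nucleus, and genes with the nearest start to a member region. Sequences were taken, where they lay outside untranslated exons, for regions with peaks in at least 3 libraries of a nucleus or with an element. The members and lists were chosen with earlier results of these data known. Alternatives were other windows, stricter peaks, regions in at least 2 libraries, other element limits, the replicate number as a block, and omission of each library in turn.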

Additional observations from a re-analysis of the deposited data

Results flagged for a closer look

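In 5 of 28 groups of 4 libraries, a library stood apart from the other 3. In each case the other 3 had the same small whole number, and any different value then stands apart, so the usual rate of about 1 in 20 groups by chance does not apply and the number of such groups says nothing. AVPV library 1 had 4 peaks in all 9 windows together, against 6 in each of the other AVPV libraries, and its list was also the shortest (2367 peaks). In the Pomc window arcuate library 4 had 1 peak, against 3 in each of the other arcuate libraries. In the Npy1r window AVPV library 3 had 1 peak and the other AVPV libraries had 0. In the Ghrh window AVPV library 4 had 2 peaks and the others 1. In the Sst window arcuate library 4 had 1 peak and the others 0.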

How the results depend on the processing

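Of 92 alternative values, 75 were labelled the same, 16 moved, 1 no longer passed its test and 0 reversed. A count was the same within a set ratio of its main value, which 27 against 18 regions still met. A percentile difference was the same if its sign, and the side of 0.05 on which its p fell, were kept. The Ghrh change from 15.9 to 3.43 points was thus the same. The value that no longer passed (Mc3r) and 1 that moved came from the replicate block, which could not pass. With windows of 20 kb there were 6 regions at 4 genes, 1 arcuate-only region in all 4 libraries (Pomc) and 0 windows that separated the nuclei. With windows of 50 kb there were 7 regions at 4 genes, 1 such region and 0 such windows. With windows of 200 kb there were 27 regions at all 9 genes, Npy included, 3 such regions and 1 such window. With fold enrichment above 5, 0 regions were called in 4 arcuate and 0 AVPV libraries and 0 windows separated the nuclei. With −log10 q of at least 5 there was 1 such region, at Agrp. With at least 2 libraries of a nucleus there were 11 regions. Allowing at most 1 mismatch left 3 elements in 18 regions (16.7%, against 11.7% of all regions), and allowing 3 mismatches gave 7 (38.9%, against 46.7%).

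Leaving out each library in turn gave 17 to 18 regions, 7 to 8 genes, 2 to 3 regions called in every arcuate and no AVPV library and 1 to 2 windows that separated the nuclei. The added region was the Ghrh region 58.0 kb downstream, without arcuate library 1. The added windows were Pomc without arcuate library 4 and Ghrh without AVPV library 4. The percentile difference ran from 16.3 to 21.1 points at Mc3r and from 6.78 to 23.3 at Ghrh. The rankings that remove list length were chosen after seeing the data, and both kept the direction at both genes.

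With the replicate number as a block, a window was counted only if it passed an exact sign-flip permutation test. With 4 pairs no window can pass it, so the count of 0 was fixed in advance and says nothing about separation. The peak numbers of the Agrp window still separated the nuclei, at 1, 1, 2 and 2 in the arcuate and 0 in every AVPV library. Its p was 0.125 (exact sign-flip permutation). The Mc3r difference of 19.5 points also had p = 0.125 (exact sign-flip permutation, the smallest that 4 pairs allow). The AVPV numbers are those of the sample titles, and the files carry other numbers. The sources used here do not say whether equal numbers mark a pair. Deviations of same-numbered libraries correlated at 0.0497, 0.0144, 0.0503 and -0.0832, and some but not all libraries correlated best with their own number. Correlations this small cannot decide whether the libraries were paired. Read counts behind a missing peak were not analysed, so absent calls cannot be separated from weak ones.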

Other observations

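The nearest region outside the window was called in all 4 arcuate and no AVPV library for Mc4r (chr18:66610538-66610934, 249.8 kb downstream) and for Npy1r (chr8:66517432-66517878, 179.5 kb upstream). Each had p = 0.0286 (Fisher's exact test over libraries) and 0.969 after adjustment over all regions, and 2.13% of all regions have this pattern. For the other 7 genes, the nearest outside region had neither 4 arcuate and 0 AVPV calls nor the opposite.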
